A study of Mus musculus and Rattus norvegicus with 24 samples.

Results

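The creatine and adenylate kinases of muscle are described here through 3 genes, Ckm, Ckmt2 and Ak1, taken by name from the 9595 genes of the count table and followed over all 24 cells. Single cells labelled as cardiomyocytes had been profiled by full-length RNA sequencing in 3 groups of 8 cells. Transplanted cells were cardiomyocytes made from mouse embryonic stem cells carrying the alleles Isl1-Cre, Rosa-RFP and aMHC-GFP, and were isolated after 30 days in the heart of a neonatal rat. Adult cells were wild-type cardiomyocytes isolated from the ventricles of adult rats (Rattus norvegicus). Cultured cells had the same origin and the same 3 alleles, and had spent 30 days in vitro. The aMHC promoter drives GFP in cardiomyocytes and Isl1-Cre marks cells of the Isl1 lineage, and all transplanted and cultured cells derive from 1 such line. The labels do not say which cells were sorted by flow cytometry and which were picked by hand.

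Creatine kinases move a phosphate group between ATP and creatine. In striated muscle the sarcomeric mitochondrial enzyme, encoded by Ckmt2, makes phosphocreatine in the space between the mitochondrial membranes, from ATP exported by the adenine nucleotide carriers. The cytosolic muscle enzyme, encoded by Ckm, uses that phosphocreatine to remake ATP beside the myofibrils and the calcium pumps. Ak1 encodes the cytosolic adenylate kinase of muscle, which converts a pair of ADP molecules to ATP and AMP. In rodent heart the brain-type subunit Ckb is known to prevail early in development and Ckm in the adult.

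The genes lie on 3 chromosomes of the mouse build GRCm38, the assembly of mm10, in the GENCODE M21 annotation. Ckm (ENSMUSG00000030399.2) lies on the plus strand of chromosome 7 from 19404776 to 19422841, and its principal transcript has 8 exons and 2742 bases. Ckmt2 (ENSMUSG00000021622.3) lies on the minus strand of chromosome 13 from 91853387 to 91876885, with a single transcript of 10 exons and 1486 bases. Ak1 (ENSMUSG00000026817.14) lies on the plus strand of chromosome 2 from 32621758 to 32635058, with 6 transcripts whose exons cover 2593 bases. The 250 bases before the annotated start are printed for each gene because the 3 genes shared the pattern described below, with counts in transplanted and adult cells and none in cultured cells. They come from RefSeq on GRCm38.p6, are written 5′ to 3′ on the gene's own strand, and capitals mark the muscle regulatory word CANNTG, the E-box. For Ak1, which has 4 annotated starts among the promoters used, the start of the principal transcript Ak1-202 was taken. Another Ak1 start, at 32621758, was also marked principal, and its window is not printed. The windows are chr7:19410844-19411093, chr13:91876886-91877135 and chr2:32625187-32625436. The Ckm start used, at 19411094, is marked principal. It lies inside the gene span given above, so the printed Ckm window does not precede the whole gene.
Ckm: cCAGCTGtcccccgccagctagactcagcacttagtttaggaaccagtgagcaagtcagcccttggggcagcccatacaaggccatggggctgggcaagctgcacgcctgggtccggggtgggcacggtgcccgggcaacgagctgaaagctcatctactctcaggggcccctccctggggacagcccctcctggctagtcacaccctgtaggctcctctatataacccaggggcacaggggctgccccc
Ckmt2: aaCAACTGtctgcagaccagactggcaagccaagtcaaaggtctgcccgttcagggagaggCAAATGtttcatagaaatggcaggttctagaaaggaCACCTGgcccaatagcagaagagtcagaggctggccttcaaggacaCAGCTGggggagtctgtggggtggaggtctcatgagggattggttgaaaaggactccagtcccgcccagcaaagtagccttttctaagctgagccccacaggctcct
Ak1: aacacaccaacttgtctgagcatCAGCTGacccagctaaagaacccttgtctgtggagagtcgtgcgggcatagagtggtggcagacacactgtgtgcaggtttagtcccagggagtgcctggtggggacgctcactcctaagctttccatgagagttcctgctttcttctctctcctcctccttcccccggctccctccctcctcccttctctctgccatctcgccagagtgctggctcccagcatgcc

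These windows differ in composition and in the words they hold. Over the full windows of 300 bases, which add 50 bases after the start, the share of G and C was 64.7% for Ckm, 53.7% for Ckmt2 and 57.7% for Ak1, against a median of 52.7% over 32817 promoters. Ckm held 1 E-box at position -249 from the start, Ckmt2 held 4 at -248, -189, -153 and -107, and the Ak1 window held 1 at -227. An E-box, searched as CANNTG on both strands, was present in 72.3% of all promoters, so its presence does not set these genes apart. The exact word TATAAA was present in 13.6% of promoters on either strand. Among the 3 windows it was found in that of Ak1 alone, beginning 22 bases after the start. It lies there within a match to the MEF2 motif that begins 21 bases after the start. The printed Ckm window holds the near word TATATAA before its start, which the search for the exact word left out. The MEF2 motif was present in 3.19% of promoters and the CArG box in 1.63%, and neither was found in the Ckm and Ckmt2 windows. The muscle enhancer for which Ckm is best known lies further upstream and outside this window. The window of the other principal Ak1 start, at 32621758, held 3 E-boxes, at -225, -206 and -177. It held no TATAAA, MEF2 or CArG box match, so the words found for Ak1 depended on the start chosen.

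Depth and cell identity differed between the groups. Total counts per cell were 88796 to 344224 in transplanted, 108546 to 223744 in adult and 16099 to 60789 in cultured cells. Genes with counts per cell ran the other way, with medians of 754 in transplanted, 930 in adult and 1494 in cultured cells. Neither animals nor cultures are named for the cells, so a group counts as 1 sample without replicates. No test between groups was therefore made, and all intervals below cover counting error only. The 11 cardiomyocyte markers took 18.2% of counts in transplanted, 16.9% in adult and 5.25% in cultured cells, and 9 to 11 of them were detected in every transplanted and adult cell. In cultured cells 0 to 10 were detected. Cultured cells F, G and H held counts in 2, 0 and 1 of the 11 markers, which goes against their label, so the bounds, ratios and gene counts over cultured cells are given with and without them. Cultured cells also held more of the ribosomal RNA Rn45s, with medians of 1.20% in transplanted, 1.23% in adult and 7.02% in cultured cells. Of 12 skeletal muscle markers 2 were listed, and the only counts were of Tnni2, 84 in 1 transplanted cell and 348 in 1 adult cell. Listed markers of fibroblasts (6 of 7), endothelium (3 of 7), smooth muscle and pericytes (4 of 5) and leukocytes (1 of 5) took at most 0.0276% of counts per list in any group, and none of the 5 neuron and glia markers was listed. The adult cells are rat cells counted on the mouse build, so species and group cannot be told apart in any comparison with them.

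All 3 kinases were present in transplanted and adult cells and absent from the counts of every cultured cell. Levels are given as counts per 1000000 counts of the listed genes (CPM), and the group level is that of the 8 cells summed. Ckm reached 5192 CPM in transplanted cells (95% interval 5069 to 5317) and 5222 CPM in adult cells (5097 to 5349). Ckmt2 reached 3554 CPM (3452 to 3658) in transplanted cells and 2283 CPM (2201 to 2368) in adult cells. Ak1 reached 464 CPM (427 to 502) in transplanted cells and 1134 CPM (1076 to 1194) in adult cells. In cultured cells each of the 3 genes had 0 counts of 206178. The upper 95% limit was 17.9 CPM, and the floor of 3 counts over the group was 14.6 CPM.

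**Figure D1:**
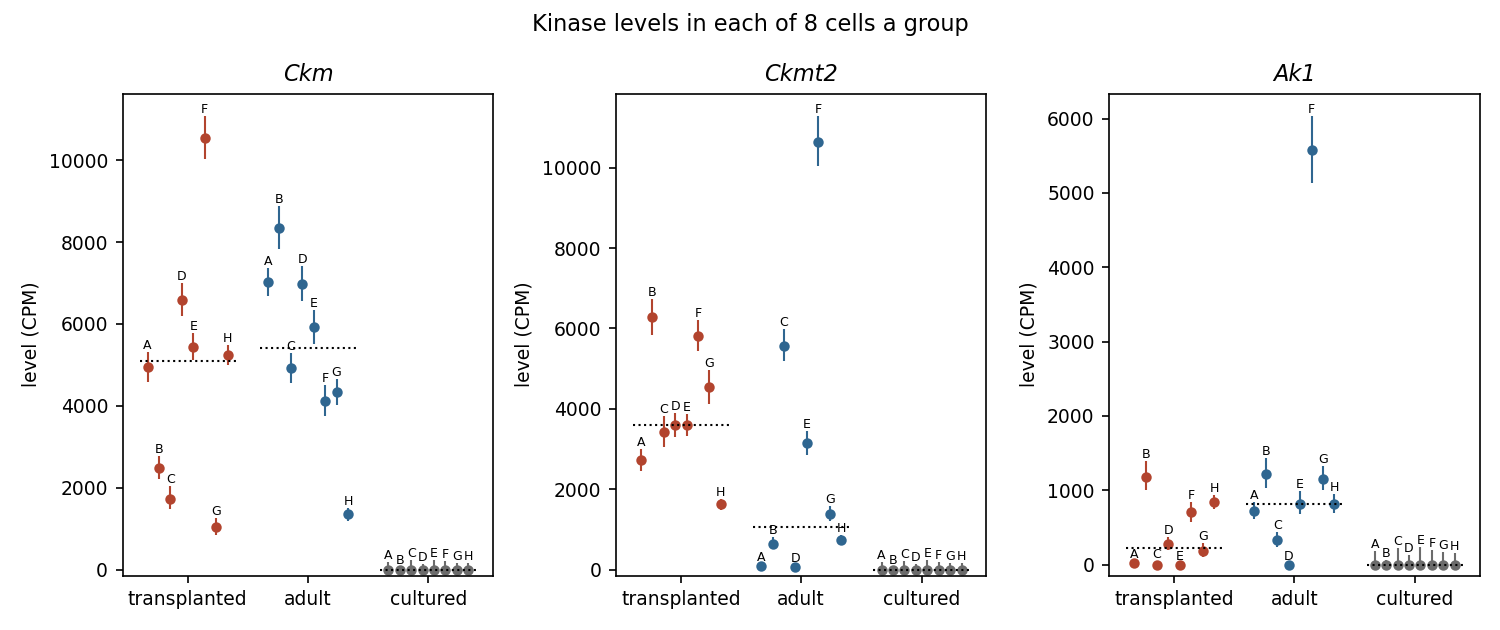
Level of Ckm, Ckmt2 and Ak1 (CPM, vertical axes) in each cell A to H of the transplanted, adult and cultured groups. Points are cells, bars are exact 95% Poisson intervals and dotted lines are group medians. All 8 cultured cells sit at 0 for each gene, and adult cell F stands highest for Ckmt2 and Ak1.

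Ckm was found in all 8 transplanted and all 8 adult cells. Its lowest, median and highest levels were 1038, 5092 and 10545 CPM in transplanted cells, 1344, 5417 and 8333 CPM in adult cells, and 0 CPM in all cultured cells. Transplanted cell F was the highest of all and transplanted cells G and C the lowest of their group, while adult cell H lay below the other adult cells. The adult range lay within the transplanted range, and neither reached the cultured cells, whose 3-count floors were 49.4 to 186 CPM per cell.

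Ckmt2 was also found in all 16 of these cells, but its spread differed between the groups. Its lowest, median and highest levels were 1624, 3598 and 6280 CPM in transplanted cells and 65.1, 1067 and 10650 CPM in adult cells. Adult cells A and D, at 89.4 and 65.1 CPM, and B, H and G, at 643, 743 and 1390 CPM, lay below every transplanted cell, and adult cell F lay above every transplanted cell. The highest cell was 3.87 times the lowest among transplanted cells and 164 times among adult cells. The coefficient of variation was 39.1% in transplanted and 132% in adult cells, where counting error alone would give 4.26% and 4.89%.

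Ak1 was the least evenly detected of the 3. It had counts in 6 transplanted and 7 adult cells, with medians of 227 and 817 CPM. Transplanted cells C and E and adult cell D had no count, and transplanted cell A had 2 counts. Adult cell F, at 5574 CPM, stood well above the next adult cell at 1218 CPM and the highest transplanted cell at 1184 CPM. Without regard to that cell, adult levels ran from 0 to 1218 CPM and covered the whole transplanted range.

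A count of 0 in cultured cells was set against their lower depth. When every cell was thinned to the 16099 counts of the shallowest cultured cell, the counts expected per cell were 16.7 to 170 for Ckm in transplanted cells and 21.6 to 134 in adult cells, so all 16 would still show the gene. Ckmt2 would still be expected in all 8 transplanted cells and in 7.44 of 8 adult cells, and Ak1 in 5.16 transplanted and 6.996 adult cells, counting the cells without it as 0. At the transplanted level, the cultured cells' own totals would have given 1070 counts of Ckm, 733 of Ckmt2 and 95.6 of Ak1. At the adult level they would have given 1077, 471 and 234. Fewer cells that express a gene and less RNA per cell cannot be told apart in the group sums, but here every single cultured cell was at 0. Thinning and these expected counts cover the depth of reads only, and loss of RNA before sequencing was not tested.

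The comparison of transplanted with cultured cells sets 30 days in a neonatal heart beside 30 days in vitro for cells derived from 1 stem cell line. Ckm was at least 357-fold higher, Ckmt2 at least 244-fold higher and Ak1 at least 31.9-fold higher in transplanted cells, taking the cultured group at a floor of 3 counts. All 3 kinases were past 2-fold. Of the 4958 genes with at least 10 counts, 22.5% were higher by 2-fold or more in transplanted cells and 64% were lower by as much. Cells F, G and H had few cardiomyocyte markers. Without them the floor of the 5 remaining cultured cells was 21.3 CPM, and the bounds were 244-fold for Ckm, 167-fold for Ckmt2 and 21.8-fold for Ak1. Cultured cells A to E, with counts in 6 to 10 of the 11 markers, held no count of the 3 kinases either. Their marker shares ran from 1.81% in cell A to 17.5% in cell C, against 13.8% to 21.4% in transplanted cells. Ttn made up 2777 of 237021 marker counts in transplanted cells, against 9301 of 10830 in cultured cells, and Myl2 and Tnni3 had counts in 1 cultured cell each. The part of ribosomal RNA and marker content in these differences was not tested.

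Adult over cultured cells gave a bound of like size for Ckm, a smaller one for Ckmt2 and a larger one for Ak1. Ckm was at least 359-fold higher, Ckmt2 at least 157-fold higher and Ak1 at least 77.9-fold higher in adult cells. All 3 were past 2-fold, as were 23% of 5132 genes in this direction, while 62.1% were lower by 2-fold or more in adult cells. Without adult cell F the bounds were 103-fold for Ckmt2 and 49.5-fold for Ak1, and without cultured cells F, G and H they were 246-fold for Ckm, 107-fold for Ckmt2 and 53.4-fold for Ak1. Both comparisons share the cultured cells, so the zeros that set their bounds are the same.

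Between transplanted and adult cells, the 3 kinases differed in 3 ways. The ratio of Ckm was 0.99 (0.961 to 1.03), and leaving out single cells placed it between 0.859 and 1.07. Ckmt2 was 1.56-fold higher in transplanted cells (1.49 to 1.63). Without adult cell F the ratio was 2.37. Ak1 was lower in transplanted cells, at 0.409 of the adult level (0.371 to 0.450), and at 0.644 of it without adult cell F. Ak1 was the only member past 2-fold, among 3501 genes of which 34.8% were higher by 2-fold or more in transplanted cells and 44.3% lower, and it was under 2-fold once adult cell F was left out. Because cells of both groups overlap for each gene, these ratios describe sums that 1 cell can shift.

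The balance between the mitochondrial and the cytosolic creatine kinase varied from cell to cell. The number of Ckmt2 counts per Ckm count was lowest at 0.310, with a median of 0.607 and a highest value of 4.37, in transplanted cells. In adult cells it was lowest at 0.00934, with a median of 0.426 and a highest value of 2.59. Ckmt2 counts exceeded Ckm counts in 3 transplanted cells, B, C and G, and in 2 adult cells, C and F. Per kilobase of union exon length, which is shorter for Ckmt2, Ckmt2 stood above Ckm in 7 of 8 transplanted and 4 of 8 adult cells, and with the shortest coding transcript of each gene in 3 and 1. The low end differed most, since adult cells A, B and D fell below 0.1 and no transplanted cell did. These same 3 adult cells had Ckm levels of 7017, 8333 and 6974 CPM, the highest of the adult group. Ckm is the divisor of the ratio by which they were picked, so this is not a separate observation.

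**Figure D2:**
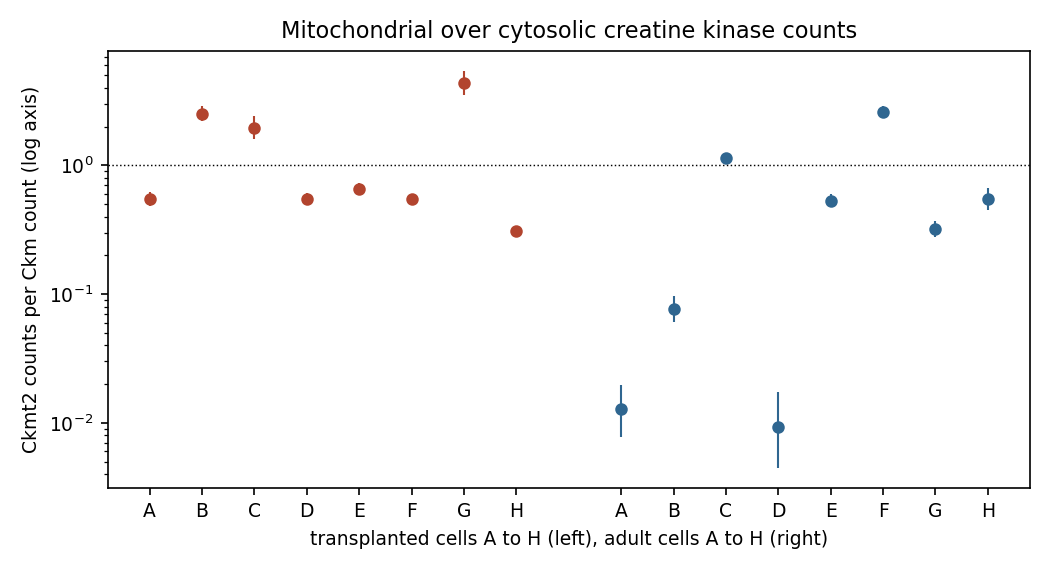
Ckmt2 counts per Ckm count (vertical log axis) in transplanted cells A to H at the left and adult cells A to H at the right. Points are cells, bars are exact conditional binomial 95% intervals and the dotted line marks equal counts. Adult cells A, B and D lie below 0.1, while all transplanted cells lie between 0.310 and 4.37.

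The summed share of counts of the 3 kinases was 0.515% to 1.71% in transplanted cells and 0.290% to 2.03% in adult cells, or 0.921% and 0.864% over the group sums. Within groups of 8 cells, Spearman's rho of Ckm with Ckmt2 was 0.05 in transplanted and -0.60 in adult cells, and that of Ckmt2 with Ak1 was 0.40 and 0.48. These are descriptions over 8 cells, and the levels compared are scaled by the same cell totals. With the cell's total counts, rho was 0.74 in transplanted and -0.05 in adult cells for Ckm, -0.33 and -0.55 for Ckmt2, and 0.24 and -0.57 for Ak1.

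Levels of different genes can be set side by side only per length. Per kilobase of union exon length, Ckmt2 stood at 2391 CPM and Ckm at 1782 CPM in transplanted cells, and Ckm at 1793 CPM and Ckmt2 at 1536 CPM in adult cells. Ak1 was lowest in both groups, at 179 CPM per kilobase in transplanted and 437 in adult cells. Which creatine kinase came first in transplanted cells depended on the length used, since the shortest coding transcript of Ckm, at 1235 bases, placed Ckm at 4204 CPM per kilobase, above Ckmt2. Ak1 was below both creatine kinases with either length.

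Another gene at the Ckm locus had counts as well. A930016O22Rik, annotated as antisense, lies on the minus strand of chromosome 7 from 19417466 to 19421417 and overlaps the exons of Ckm by 451 bases. It had 3162 counts in transplanted cells, 3224 in adult cells and 0 in cultured cells, or 2427, 2536 and 0 CPM. Per Ckm count it had a median of 0.499 counts in transplanted cells, with a range of 0.254 to 0.647, and a median of 0.486 in adult cells, with a range of 0.397 to 0.537. The strand setting of the counting is not given in the sources used here. Reads of the antisense gene and of Ckm therefore cannot be told apart within the 451 bases of overlap. The exons of A930016O22Rik cover 2560 bases in all, and the source of its reads outside the overlap was not tested. Of the 2904 words of 50 bases in the Ckm exons, 10.8% occur in A930016O22Rik as well and none in another creatine kinase gene. With its counts added to those of Ckm, the bounds over cultured cells were 524-fold for transplanted and 533-fold for adult cells, and the ratio of transplanted over adult cells was 0.982. Ckmt2 shared 2.51% of its 1437 words with the antisense gene 1700119I11Rik, which is not among the listed genes, and Ak1 shared none of 2630 with any gene.

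**Figure D3:**
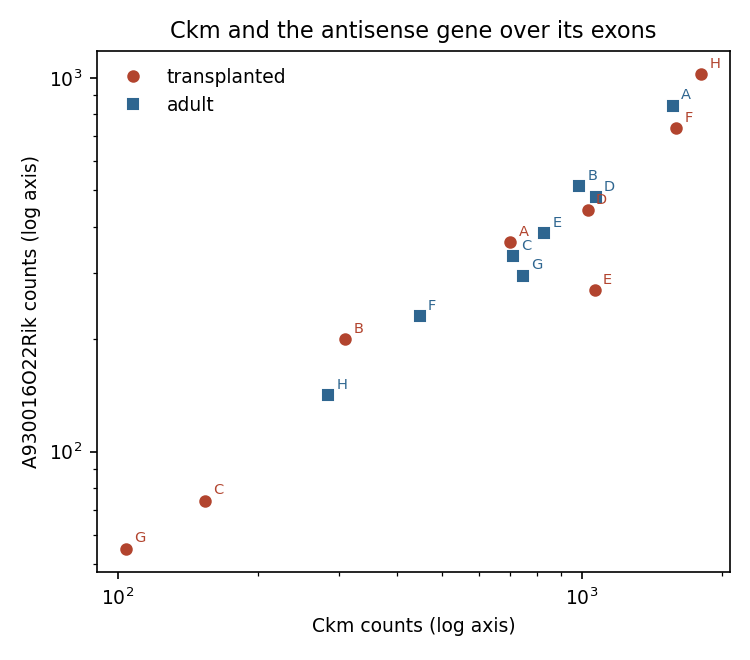
Counts of Ckm (horizontal log axis) and of A930016O22Rik (vertical log axis) in 8 transplanted and 8 adult cells, each point a cell with its letter. The antisense gene had between 0.254 and 0.647 counts per Ckm count in transplanted cells and between 0.397 and 0.537 in adult cells.

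Other genes of creatine metabolism had few counts. Ckb, the brain-type cytosolic subunit, had 0 counts in transplanted cells, 4 counts in 2 adult cells and 0 counts in cultured cells. The 0 counts allow up to 2.30 CPM in transplanted and 14.6 CPM in cultured cells. Gamt, which makes creatine from guanidinoacetate, had 0 counts in transplanted and adult cells and 7 counts in 1 cultured cell. Slc6a8, the creatine transporter of the plasma membrane, had 0 counts in transplanted cells, 140 counts in 1 adult cell and 5 counts in 1 cultured cell. The ubiquitous mitochondrial creatine kinase Ckmt1 and the creatine-making enzyme Gatm were not among the listed genes.

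Among 38 genes of ATP and phosphate transfer, 28 were listed and 24 had at least 10 counts over the 3 groups. In transplanted over cultured cells 9 of 21 with enough counts were higher by 2-fold or more, beside 22.5% of all genes, and 8 lower, beside 64%. Apart from the 3 kinases the counts were 6 higher and 8 lower of 18. In adult over cultured cells 13 of 23 were higher, beside 23%, and 6 lower, beside 62.1%, or 10 and 6 of 20 apart from the kinases. In transplanted over adult cells 4 of 21 were higher, beside 34.8%, and 8 lower, beside 44.3%, the lower count being close to the background. The median log2 ratio of the list, with 1 CPM added, was 0.77, 2.14 and -0.52 in these comparisons, beside -5.63, -3.85 and -0.37 over all genes. With genes at 0 set to 3 counts in place of the added CPM, the list medians were -0.07, 1.70 and -0.53, beside -4.53, -4.04 and -0.37, so the sign of the first depended on this setting. The all-gene value of -5.63 is that of a gene with 10 cultured and 0 transplanted counts, so the count minimum and the added CPM set it.

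The carriers that serve the mitochondrial creatine kinase were counted in cultured cells as well. Slc25a4, the adenine nucleotide carrier of heart and skeletal muscle, had counts in every transplanted and adult cell and in 6 cultured cells, at 22473 CPM in transplanted, 20219 CPM in adult and 364 CPM in cultured cells. It was 61.8-fold higher in transplanted (49.3 to 78.6) and 55.6-fold higher in adult than in cultured cells, or 93.3-fold and 83.9-fold without cultured F, G and H, and 105.7-fold and 95.1-fold without cultured G alone. Per kilobase it had the highest level of the list, 9551 CPM in transplanted and 8593 CPM in adult cells. Slc25a3, the mitochondrial phosphate carrier, had 2192 CPM in transplanted and 1272 CPM in adult cells but only 2 counts in 2 cultured cells, A and E. Its ratio over cultured cells was 226 (62.5 to 1867) for transplanted cells, 155 without cultured F, G and H, and up to 417 when cell A or E was left out. Slc25a5, the more widely expressed carrier, was 3.59-fold higher in transplanted (2.73 to 4.83) and 6.67-fold higher in adult than in cultured cells. Most of its cultured counts lay in cell G, which held none of the cardiomyocyte markers. Without that cell the ratios were 15.4 and 28.6, and without F, G and H they were 11.9 and 21.99.

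The voltage-dependent anion channels let these metabolites cross the outer mitochondrial membrane. Vdac2 was 12.5-fold higher in transplanted (8.04 to 20.5) and 5.38-fold higher in adult than in cultured cells, or 14.2-fold and 6.14-fold without cultured F, G and H. Without cultured cell A the ratios were 22.5 and 9.73, and without adult cell D the adult ratio was 3.32. Between transplanted and adult cells the ratio of Vdac2 was 2.31, and 3.75 without adult cell D. Vdac1 had counts in 3 transplanted, 6 adult and 4 cultured cells, and its direction over cultured cells rested on single cells. Its ratio was 1.71 (1.21 to 2.49) for transplanted cells, and 0.640 without transplanted cell B or 3.01 without cultured cell B. For adult cells it was 2.46 (1.75 to 3.57), and 1.54 without adult cell B or 4.34 without cultured cell B. Without cultured F, G and H the Vdac1 ratios were 1.71 and 2.46 again. Vdac3 stood at 180 CPM in transplanted, 260 CPM in adult and 204 CPM in cultured cells, with ratios over cultured cells of 0.882 and 1.28, or 1.01 and 1.47 without F, G and H. Leaving out transplanted cell E placed the first at 0.537.

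Nme2, a nucleoside diphosphate kinase that passes phosphate from ATP to other nucleotides, had counts in 8 transplanted, 8 adult and 5 cultured cells. It was 5.61-fold higher in transplanted and 6.03-fold higher in adult than in cultured cells, 8.61-fold and 9.26-fold without cultured F, G and H, and 8.72-fold and 9.38-fold without cultured cell A. Its paralog Nme1 shares close sequence with it, and reads could be placed on either.

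Other adenylate kinases and the adenosine kinase had counts in fewer transplanted and adult cells than Ak1. Ak4, a mitochondrial matrix member, had 0 counts in transplanted and adult cells and 28 in 1 cultured cell, and Ak6 had 0 counts in transplanted cells, 68 in 1 adult cell and 41 in 1 cultured cell. Ak3, the GTP-using matrix enzyme, had 3 counts in transplanted cells, 68 in 2 adult cells and 2 in cultured cells. Adk, the adenosine kinase, had 12 counts in 2 transplanted cells, 355 in 5 adult cells and 96 in 3 cultured cells, and was 30.3-fold lower in transplanted than in adult cells (17.1 to 59.2), or 15.9-fold without adult cell B and 81.0-fold without transplanted cell A. None of these had counts in more than 5 cells of a group, whereas Ak1 had counts in 6 and 7.

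Most of the list genes lower than in cultured cells had their counts in single cells. Of the 8 list genes lower in transplanted than in cultured cells, 6 had counts in only 1 cultured cell, and of the 9 higher, 8 had counts in at least 6 transplanted cells. For adult over cultured cells, 5 of the 6 lower had counts in 1 cultured cell and 9 of the 13 higher had counts in at least 6 adult cells. Without cultured cells F, G and H the counts were 9 higher and 5 lower for transplanted, and 15 higher and 5 lower for adult cells. Without cultured cell A the lower counts were 5 for transplanted and 3 for adult cells, and without transplanted cell D 2 list genes were higher in transplanted than in adult cells. The remaining named members of the list, Nme3, Nme4, Nme6 and the AMP-activated protein kinase subunits Prkaa1, Prkab1, Prkab2 and Prkag1, had counts in at most 2 cells of any group.

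**Figure D4:**
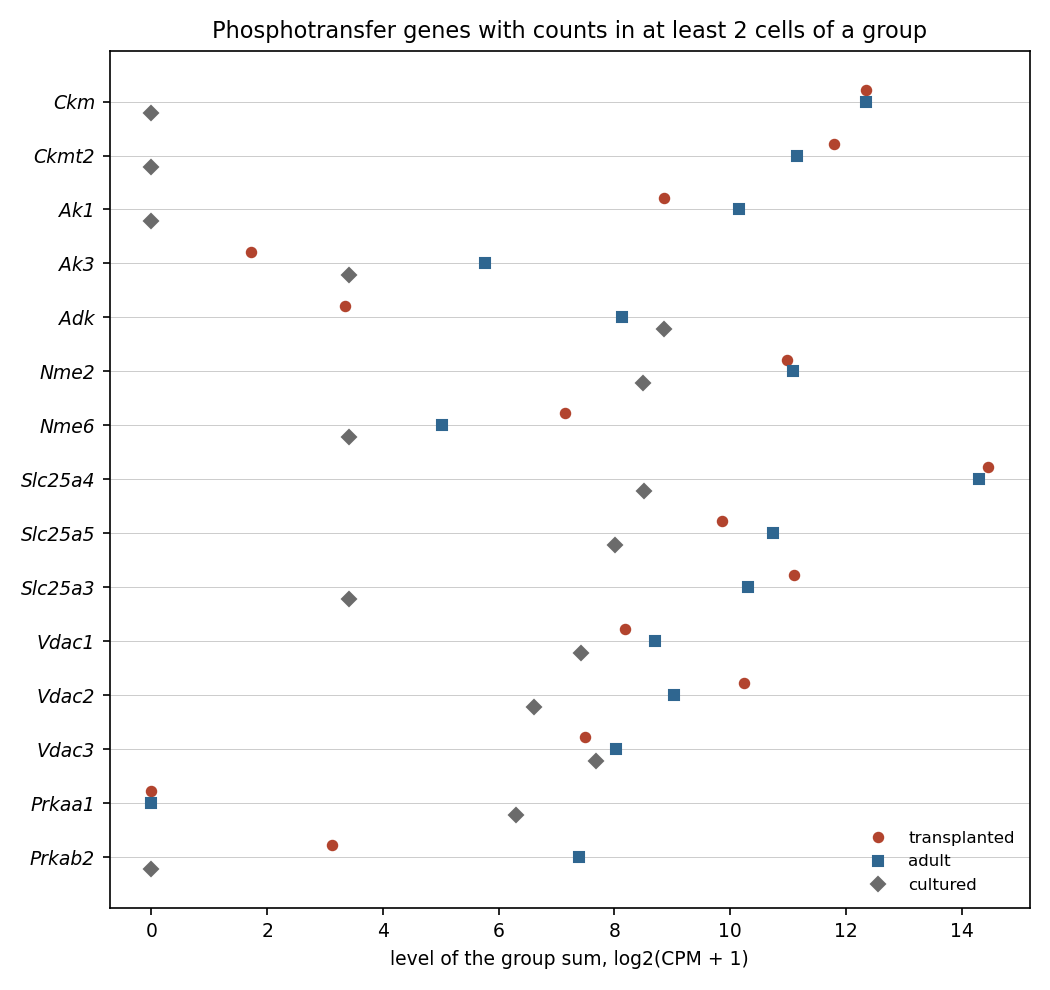
Level of the group sum, log2(CPM + 1), for the 15 phosphotransfer genes with at least 10 counts in all and counts in at least 2 cells of a group, in transplanted (circles), adult (squares) and cultured cells (diamonds). Ckm, Ckmt2 and Ak1 lie at 0 in cultured cells, while Slc25a4, at 364 CPM, and Nme2, at 359 CPM, have cultured levels above 0.

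Likeness was measured by Spearman's rho of log2(CPM + 1) over the 24 cells, among 2665 genes with a mean of at least 50 CPM. All values share the 8 cells at 0 and each cell's total, so they mostly describe the difference between cultured and other cells. For Ckm the nearest were the overlapping antisense gene A930016O22Rik (0.976), Tuba4a, an alpha-tubulin (0.898), the kinase Stk16 (0.887), the LIM-domain gene Fhl2 (0.843) and the ventricular light chain Myl3 (0.839). For Ckmt2 they were the complex I subunit Ndufa8 (0.875), the prostaglandin D synthase Ptgds (0.834), the cardiac myosin-binding protein Mybpc3 (0.833), and the cytochrome c oxidase subunits Cox4i1 (0.819) and Cox5b (0.817). Those of Ak1 included Gm12338 (0.851), the complex I subunits Ndufv1 (0.792) and Ndufa12 (0.760), and the calcium pump Atp2a2 (0.764). The 3 kinases were less like each other, at 0.576 to 0.634. Over the 16 transplanted and adult cells alone, 2 of the 15 nearest genes were again among the nearest, A930016O22Rik (0.921) and Stk16 (0.671), both of Ckm.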

How the data were processed

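Single cells were sorted or picked, and their RNA was copied by template switching, amplified, cut with Tn5 and sequenced, per the labels' protocols. As deposited, the table holds raw counts, 1 whole number for each gene in each cell. The submitters' processing notes name TopHat2 2.1.0, HTSeq, DESeq2 and mm10, for rat cells too. No source used here gives the annotation, the strand setting or how the 9595 genes were chosen. No molecular identifiers are stated, so counts are reads, and intervals and floors cover counting error only.

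Counts were summed over the 8 cells of a group and scaled to CPM, with exact Poisson intervals for levels and exact conditional binomial intervals for ratios, at 95%. A group without counts was set to 3 counts, which makes the ratio a bound at that floor and not a 95% limit. List genes counted past 2-fold, among genes with at least 10 counts over both groups. Group and letter came from the titles, 0 columns were left unused, and cells of a group differed by more than sampling noise. Named genes were the 3 kinases, phosphotransfer genes with at least 10 counts, and the 5 genes most like each kinase, some of which are not reported here. The members and lists were chosen with earlier results of these data known. Positions and exon lengths came from GENCODE M21 and promoters from RefSeq GRCm38.p6, which held all 3 kinases. Alternatives were edgeR 4.0.16 TMM factors, DESeq2 1.42.0 size factors, totals without Rn45s and Rpph1, equal cell weights, a minimum of 1 count, a 4-fold threshold, Pearson's r or 16 cells for likeness, and leaving out each cell. Added after seeing the data were leaving out cultured cells F, G and H, adding the antisense counts, leaving out each cell for the list counts and genes, medians with the 3-count floor, and another exon length. Python 3.11.15, scipy 1.17.1 and R 4.3.3 were used, and the estimators were tested on simulated Poisson counts. The simulation covered neither spread between cells nor bounds against a group at 0 counts.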

Additional observations from a re-analysis of the deposited data

Results flagged for a closer look

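Ak1 in adult cell F, at 5574 CPM, stood apart from the other 7 adult cells, of which the next was at 1218 CPM. The gap is larger than Dixon's 95% limit for 8 values. Among the 6 sets of cells tested, 3 genes in transplanted and adult cells, 1 was picked out, and chance picks out about 1 in 20. Adult cell F also had the highest Ckmt2 level, 10650 CPM, and the largest share of counts from the 3 kinases, 2.03%.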

How the results depend on the processing

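The bounds over cultured cells kept their direction under every alternative run, and their size followed the scaling. For transplanted over cultured cells, TMM factors gave 674-fold (Ckm), 462-fold (Ckmt2) and 60.2-fold (Ak1), DESeq2 size factors 417, 285 and 37.2, totals without Rn45s and Rpph1 326.3, 223 and 29.1, equal cell weights 326.5, 271 and 27.4, and cultured cells without F, G and H 244.3, 167 and 21.8. For adult over cultured cells the same alternatives gave 679.7, 297 and 147.6 (TMM), 395, 172 and 85.7 (DESeq2), 328, 143 and 71.2 (without Rn45s and Rpph1), 369, 192 and 91.3 (equal cell weights), and 246, 107 and 53.4 (without F, G and H). With the antisense counts the Ckm bounds were 524 and 533. These scalings multiply every ratio over cultured cells by one factor, a log2 shift of 0.92 for TMM in both comparisons, 0.22 and 0.14 for DESeq2, and -0.13 without Rn45s and Rpph1. Leaving out each cell in turn gave, for transplanted over cultured cells, 252 to 381 (Ckm), 172 to 292 (Ckmt2) and 22.5 to 37.5 (Ak1), and for adult over cultured cells 253 to 412, 103 to 189 and 49.5 to 88.6.

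For transplanted over adult cells, equal cell weights gave 0.885 (Ckm), 1.42 (Ckmt2) and 0.300 (Ak1), and DESeq2 size factors gave 1.06 for Ckm and 1.65 for Ckmt2. Leaving out each cell gave 0.859 to 1.07 for Ckm, 1.29 to 2.37 for Ckmt2 and 0.291 to 0.644 for Ak1, so the direction for Ckm was not settled. At 4-fold, 2 list genes in place of 4 were higher in transplanted than in adult cells. Leaving out each cell gave 9 to 10 list genes higher and 5 to 8 lower for transplanted over cultured, 11 to 14 and 3 to 7 for adult over cultured, and 2 to 5 and 7 to 10 for transplanted over adult cells. Without cultured F, G and H, 5 in place of 8 were lower in transplanted than in cultured cells. Of the 15 genes most like the kinases, 2 were kept over the 16 transplanted and adult cells and 5 with Pearson's r. The cause of these changes was not tested, except that a floor over fewer cultured counts is higher by construction. In all, 174 alternative values moved by less than the counting interval or 1.5 times and 147 by more. Among these values 0 turned in direction past 2-fold, but the bounds over cultured cells could not turn, since their cultured counts were 0. Ratios of the other list genes were not among these values, and some turned past 2-fold when single cells were left out. Ak6 in adult over cultured cells went from 0.269 to 3.35 without cultured cell F. Prkab2 in transplanted over adult cells went from 0.0463 to 4.43 without adult cell B. No paired analysis was possible because the letters only name cells and each group is 1 sample. Depth limits cultured cells most, where 3 counts are 14.6 CPM over the group and up to 186 CPM in a cell.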
